A study of Mus musculus with 55 samples.

Results

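The line IL-611 is one of 29 recombinant inbred lines of the Collaborative Cross (CC), a mouse panel bred from 8 founder strains, whose livers were profiled by RNA sequencing. The IL-611 livers were those of the 3 mice whose strain label is IL-611, out of 55 mice in all, and they were set against the 52 mice of the 28 other lines, each line being taken as the mean of its 1 to 3 mice. All were untreated male CC mice with free access to water and chow, and the polyA RNA of whole liver was read. The IL-611 mice were 10.1 weeks old and weighed 28.4, 26.9 and 29.5 g, whereas the mean ages of the other lines ran from 8 to 11.9 weeks and their mean weights from 14.7 to 32.9 g with a median of 22.6 g. Since 2 of the 28 lines were heavier than IL-611 and 4 were older, and since all IL-611 mice shared 1 age, the line, its age and its body weight cannot be told apart. The depth was 29.5, 29.3 and 29.8 M estimated fragments in IL-611, within the 20.5 to 34.0 M of the other mice. The mice of a line share most of their genome. P-values thus measure the spread among inbred line mates or among lines and not that of an outbred population.

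Inbreeding brings a line close to 1 combination of founder alleles, which its mice share where it is fixed. Among the genes described here, metallothioneins bind zinc and copper in the hepatocyte, interferon-stimulated genes form the antiviral program switched on by interferons, Ly6 genes encode small membrane-anchored proteins, and the cytochromes P450 and UDP-glucuronosyltransferases oxidize and conjugate drugs and steroids. Levels are given as FPKM, the fragments of a gene scaled to its length and to the depth of the library. Fragments that align to several genes were shared out among them by the authors' quantification, so that an estimated count that is whole (within 0.005) in all 55 mice marks a gene that shared no fragment, as in 6239 of the 11284 genes tested (55.3%).

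The livers of IL-611 differed widely from the average line but seldom lay beyond all other lines. Spearman's correlation across genes was 0.988, 0.992 and 0.987 between the IL-611 mice and at most 0.957 with any mouse of another line (across genes, which are not replicates). IL-3438 was the most alike line, at a mean of 0.951, and IL-2126 the least, at 0.890. In limma on log2(FPKM + 1), where the spread is that among line mates, 590 genes were higher and 1090 lower in IL-611 than in the mean of the other lines, or 5.23% and 9.66% of all genes tested, at an adjusted p under 0.05 by Benjamini-Hochberg. The median difference over all genes was -0.05 on the log2 scale. The split between directions moved with the scaling, the higher genes making up 35.1% of calls with FPKM, 26.5% with TPM and 58.1% with edgeR on the counts. Where the spread was that among lines, edgeR's quasi-likelihood test called 0 genes, with 121 at an unadjusted p under 0.05 (1.07%) and a smallest adjusted p of 0.869, while DESeq2 on the same line sums called 46, or 0.408%. Of these 46, 45 were lower in IL-611, 35 had a gene-model, pseudogene or clone symbol and 40 shared fragments with other genes in at least 1 mouse. The 46 also held Ccl27a, Pqlc1, Hddc3, Ugt2b38, Mt2, AK157302, Mmd2 and Mt1, described below, with DESeq2 adjusted p from 3.02e-04 for Ccl27a to 0.0414 for Mt1. Accordingly "rose" and "fell" are used below for the test among line mates alone, and no gene named is beyond the spread of lines by edgeR.

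The other lines with 3 mice gave more calls. The test among line mates called 3073 genes in IL-2156, 2299 in IL-670 and 2030 in IL-785, against 1680 in IL-611, and edgeR over lines called 40, 5 and 23. IL-611 had the highest mean of all lines in 52 genes and the lowest in 183, against 457 and 268 in IL-2156. The remaining line with 3 mice, IL-2750, was left out of that comparison, because both mice labelled IL-1052 were closest in expression to IL-2750 mice and IL-2750 mice were closest to IL-1052 mice. Without both lines 2297 genes were called in IL-611, and 2 of the 3 IL-611 mice alone gave 760 to 1086. With body weight as a covariate in the test among line mates 740 genes were called. The slope on weight came from differences among line mates alone, so this setting does not separate a line from its weight.

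Genes for which every IL-611 mouse lay outside all 52 other mice were few, at 18 of 11284 genes or 0.16%, with 8 above (0.0709%) and 10 below (0.0886%). All 18 also passed the test among line mates. With TPM in place of FPKM 15 genes did so, 13 of them the same. By FPKM, the mice of IL-2156 lay above all mice of other lines in 22 genes and below them in 23. For IL-670 these counts were 18 and 44, and for IL-785 they were 28 and 51. Among the 8 genes above all other mice in IL-611, the largest difference was that of Ly6a, at chr15:74825308-74828064 of NCBIM37. This gene is also called Sca-1, a marker of stem and activated cells. Ly6a stood at 221, 338 and 376 FPKM in the 3 IL-611 mice, and the other line means ran from 0.51 in IL-2126 through a median of 9.19 to 161 in IL-557. The groups did not overlap, the IL-611 mean was 33.9 times the median of the other lines, and the gene rose by 4.51 ± 0.58 (SE) on the log2 scale (adjusted p = 3.49e-06). Among the lines nearest to it, IL-1141 had a mean of 140.3 FPKM and IL-3348 one of 105 FPKM. Mates could differ widely, as at 3.51 and 90.6 FPKM in IL-3438 and at 132 and 5.23 FPKM in the mice labelled IL-1052.

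Dct, dopachrome tautomerase of the melanin pathway and not a usual liver product, was at 11, 10.2 and 8.92 FPKM in IL-611. In the other lines it ran from 0 FPKM, in IL-2693, to 5.24 FPKM in IL-785 with a median of 1.34. It rose by 2.43 ± 0.24 on the log2 scale (adjusted p = 9.22e-09). Limk2, a kinase that acts on the actin regulator cofilin, was at 6.09, 5.75 and 5.7 FPKM against 0.91 to 4.505 (median 1.55), a rise of 1.40 ± 0.11 (adjusted p = 2.04e-11). Sord, the sorbitol dehydrogenase of the polyol pathway, is abundant in liver. It reached 616, 596 and 602 FPKM against 237 to 581 (median 372) and rose by 0.71 ± 0.11. The remaining genes above all other mice were Trhde, a peptidase of thyrotropin-releasing hormone, Nudcd1, Copa, a subunit of the coatomer coat of transport vesicles, and the pseudogene Crry-ps. Their IL-611 means were 2.36, 5.75, 43.9 and 1.39 FPKM against medians of 0.43, 3.95, 33.7 and 0 FPKM. Crry-ps was listed at 0 in all 52 other mice and rests on 10.1, 26.3 and 12.4 estimated counts in IL-611. As a pseudogene it has a source gene from which fragments can be shared. It is 1 of 9 genes that met the minimum of 2 FPKM through IL-611 alone, with 2.22 FPKM in 1 mouse, so its place above the other mice rests on that filter, and its counts were whole in none of the IL-611 mice.

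Below all other mice, the metallothionein gene Mt2 had the largest difference of all named genes. Mt2 was at 0.96, 1.0 and 0.44 FPKM in IL-611, against 5.09 in IL-3348, a median of 121 and 1335 in IL-4141. The median line was thus 151 times the IL-611 mean, and the gene fell by 5.38 ± 0.99 on the log2 scale (adjusted p = 3.71e-04). Its neighbour Mt1 was below every other line mean, although at least 1 other mouse reached into its range. It was at 2.38, 4.66 and 3.1 FPKM against 8.98 (IL-557), 164 and 1581 FPKM, and fell by 4.83 ± 0.93 (adjusted p = 6.34e-04). Both genes lie side by side, Mt2 at chr8:96696518-96697467 and Mt1 at chr8:96702989-96704225 of NCBIM37. Counts of both were whole in 55 of 55 mice, so neither shared fragments. Neither Mtf1, the metal-responsive factor that drives both genes, nor Slc30a1, a zinc exporter that it also controls, passed the test, at 3.17 ± 0.257 FPKM and 5.84 ± 0.6804 FPKM (SD, n = 3) against medians of 3.3 and 7.04 FPKM. The lines with the next lowest means were IL-557, with 8.98 and 5.52 FPKM for Mt1 and Mt2, IL-3348, with 26.4 and 5.09 FPKM, IL-4032, with 27.2 and 7.77 FPKM, and IL-3912, with 27.8 and 8.13 FPKM (Mt1 first). Single mice of other lines came close to IL-611 while a mate did not. One IL-1052 mouse had 3.65 and 3.99 FPKM and its mate 467 and 472 FPKM, and one IL-3438 mouse had 7.1 and 1.25 FPKM and its mate 69.4 and 25.2 FPKM. IL-2750 and IL-72 likewise held a mouse at 4.14 and 3.63 FPKM and one at 7.59 and 6.54 FPKM, with mates at up to 94.4 and 104 FPKM and at 159.99 and 164 FPKM. As given above, mice labelled IL-1052 and IL-2750 were closest in expression to mice of the other label. Mates by label may thus not be true line mates in these lines. Low levels of both genes thus occurred in mice of several lines, and in IL-611 in all 3.

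**Figure D1:**
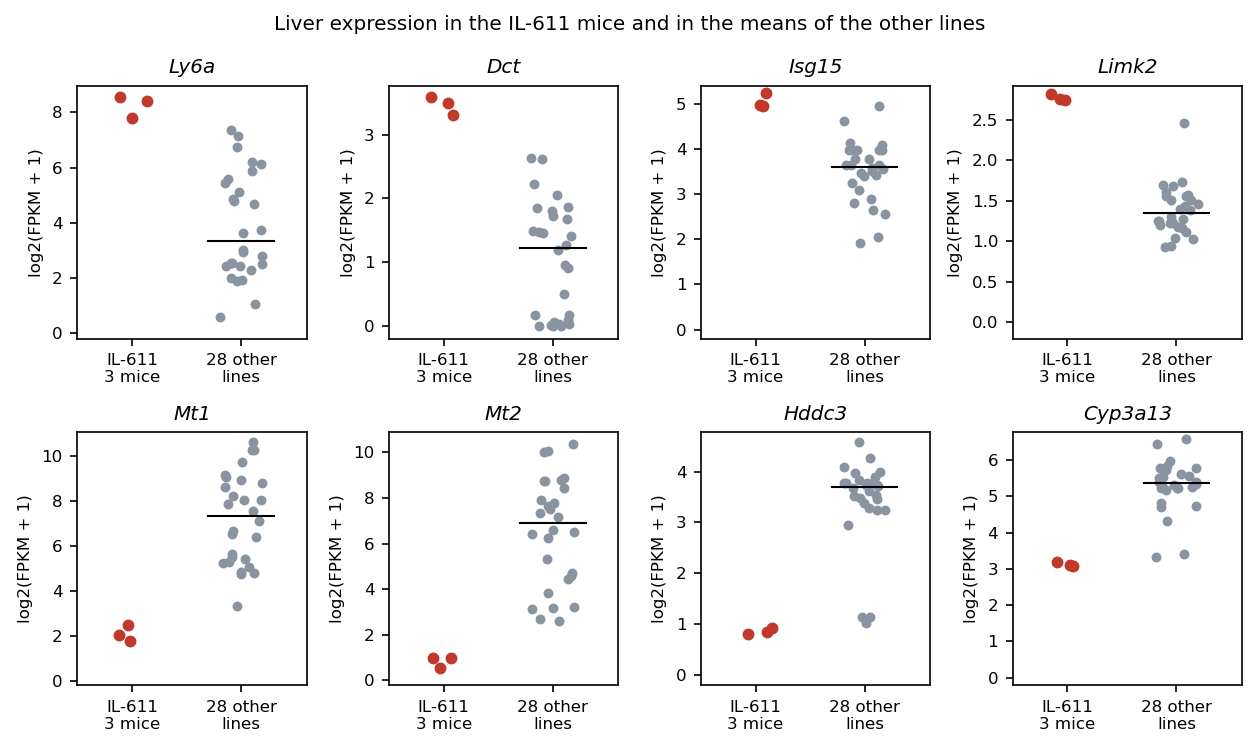
FPKM of 8 genes on the log2(FPKM + 1) scale, with the 3 IL-611 mice as red points, the means of the 28 other lines as grey points and their median as a black line. The IL-611 mice lie above the line means for Ly6a, Dct and Limk2 and below them for Mt1, Mt2 and Hddc3, and the IL-611 means of Isg15 and Cyp3a13 lie above and below every line mean.

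Hddc3, a phosphohydrolase of the HD-domain family that breaks down the alarmone ppGpp, was at 0.89, 0.74 and 0.79 FPKM against a median of 11.9. It was also near that level in IL-670, IL-72 and IL-2126, with means of 1.03, 1.19 and 1.21 FPKM, while the next line, IL-219, had 6.71 FPKM. The fall of 2.56 ± 0.12 on the log2 scale (adjusted p = 1.07e-16) was thus measured against lines that included 3 with a low level. Ccl27a, a chemokine of epithelia that attracts skin-homing T cells, was at 0, 0.09 and 0.09 FPKM against 0.24 to 8.69 (median 4.84), with IL-557 and IL-2693 also under 0.3 FPKM at 0.24 and 0.29. It fell by 2.34 ± 0.13, and its counts were whole in 12 of 55 mice, so they share fragments with near-identical copies and its level is uncertain. Pqlc1, a membrane transporter-like protein, was at 14.5, 13.8 and 12.8 FPKM against 26.7 to 65.7 (median 39.02) and fell by 1.47 ± 0.14. The other genes below all mice, Shb, Csrp2, Ppih, F11r, Ripk4 and Thumpd1, fell by 1.02 to 0.49 on the log2 scale. Of these Csrp2, a muscle LIM protein found in stellate cells, was at 13.2, 12.96 and 11.4 FPKM against 15.3 to 107, and Ripk4, a kinase of epithelial differentiation, at 0.83, 0.82 and 0.75 FPKM against 0.93 to 4.08.

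Ly6a lay in a run of Ly6 genes on chromosome 15 in which Ly6e, Ly6i, Ly6a, Ly6c1 and Ly6c2 rose, where 5.23% of all genes did. These neighbours were picked after their values were seen, and the ends of the run are those of the genes that rose. Ly6e (chr15:74785481-74790335), a broadly expressed family member, was at 188, 198 and 194 FPKM against 34.8 to 284 with a median of 97.3, a rise of 1.08 ± 0.28 (adjusted p = 0.00771), and it overlapped the other lines. Ly6i was at 1.78, 3.67 and 3.86 FPKM against a median of 0.24 and a highest line of 1.94, and rose by 1.56 ± 0.18. Ly6c1 and Ly6c2, the monocyte and endothelial marker genes, were at 8.003 and 1.64 FPKM against medians of 1.14 and 0.615, with rises of 1.95 ± 0.23 and 0.70 ± 0.20. Counts were whole in 3 and 4 of 55 mice for this pair, 39 for Ly6i and 44 for Ly6a, so these values are uncertain, while those of Ly6e were whole in 55. Outside that run Ly6d did not pass, at 0.32 FPKM against a median of 0.427, nor did BC025446, at 77.1 against 60.1.

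Interferon-stimulated genes were higher in IL-611 as a group. Of the 28 list members tested, 15 rose, 0 fell and 13 did not pass, and 26 had a positive difference. The median difference was 0.63 on the log2 scale, beside -0.05 over all genes, and 5.23% of all genes were called higher. Isg15, a ubiquitin-like modifier, was at 30.6, 30.3 and 36.7 FPKM against 2.77 to 30.3 (median 11.2), and it rose by 1.57 ± 0.21 (adjusted p = 5.52e-06). The lowest IL-611 mouse lay just under the mean of IL-4457, the highest other line. One IL-4457 mouse, at 31.35 FPKM, lay above the IL-611 mice at 30.6 and 30.3 FPKM, so the groups overlapped. Usp18, which removes Isg15 from proteins, rose by 1.3 ± 0.24, at 10.8 ± 2.04 FPKM (SD, n = 3) against a median of 3.62. Irf7, the factor that amplifies the interferon response, rose by 1.32 ± 0.27, at 27.96 ± 3.49 FPKM against 10.7. Ifit1 and Ifit3, which bind foreign RNA, rose by 1.45 ± 0.24 and 1.61 ± 0.21, and the 2-5A synthetases Oas1a and Oas1g by 1.95 ± 0.20 and 1.47 ± 0.15. Rsad2 (viperin), Ifi44, Gbp3, Gbp6, Irgm1, Xaf1, Rtp4 and Bst2 (tetherin) rose by 0.52 to 1.16. Over lines edgeR gave Xaf1, lines being the units, the opposite sign, at -0.09 and not called. Mx1, an antiviral GTPase that is defective in many laboratory strains, did not pass, with a mean of 0.633 FPKM against a median of 0.335. Oas1a, Oas1g, Ifit1, Ifit3, Gbp6 and Xaf1 share fragments with close copies, with whole counts in at most 8 of 55 mice, and their single values are uncertain. Without IL-611 replicate 1 or replicate 3 the list gave 10 calls each, and with body weight as a covariate 12. Calls over all genes went from 1680 to 760, 763 and 740 in these settings. The summed level of the 12 B and T lymphocyte markers was 7.6 to 13.85 FPKM in IL-611 against line means of 1.61 to 47.1, and that of the Kupffer cell markers 108 to 214 FPKM against 41.1 to 431. Neither sum left the range of the other lines, and no member of either list passed the test, but 10 of 12 Kupffer markers and 5 of 5 lymphocyte markers tested had a positive difference, as the interferon genes had, with medians of 0.34 and 0.09 on the log2 scale. With body weight as a covariate the Kupffer median was 0.73 and 1 marker was called. Their part in the interferon result was not tested.

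Many interferon-stimulated genes carry a binding sequence in their promoter, the interferon-stimulated response element. Its letters, taken as GAAA, any 2 bases and GAAA, on either strand and with overlapping matches counted, were searched in the 250 bases before each gene's start in the RefSeq table for GRCm38.p6 (another build than that of the files). They occurred in 2.98% of 32851 promoters, at least 2 times in 0.18% and at least 3 times in 0.0122%. Of the interferon list, 19 of 29 genes had a promoter in the table and 13 held a match, among them 9 of the 12 that rose and 3 of the 6 tested that did not pass. The 150 bases before the start are shown for 3 genes that rose, 5′ to 3′ along the gene, with matches in capitals.
Isg15, chr4:156200819-156200968, minus strand: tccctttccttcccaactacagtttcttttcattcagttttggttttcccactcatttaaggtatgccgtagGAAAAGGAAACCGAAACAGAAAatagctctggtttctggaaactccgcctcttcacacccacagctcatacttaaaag
Ifit1, chr19:34640739-34640888, plus strand: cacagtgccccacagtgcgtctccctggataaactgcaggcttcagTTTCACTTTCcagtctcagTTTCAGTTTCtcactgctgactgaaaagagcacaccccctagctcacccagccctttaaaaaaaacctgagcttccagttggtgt
Ifit3, chr19:34583379-34583528, plus strand: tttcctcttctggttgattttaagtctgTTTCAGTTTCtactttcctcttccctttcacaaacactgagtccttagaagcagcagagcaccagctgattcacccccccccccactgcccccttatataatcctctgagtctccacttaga
In Isg15 3 overlapping matches lie 78 to 57 bases before the start, in Ifit1 2 matches lie 104 to 95 and 85 to 76 bases before it, and in Ifit3 1 of its 2 matches lies 122 to 113 bases before it. These letters describe the C57BL/6J reference and were not read in IL-611.

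**Figure D2:**
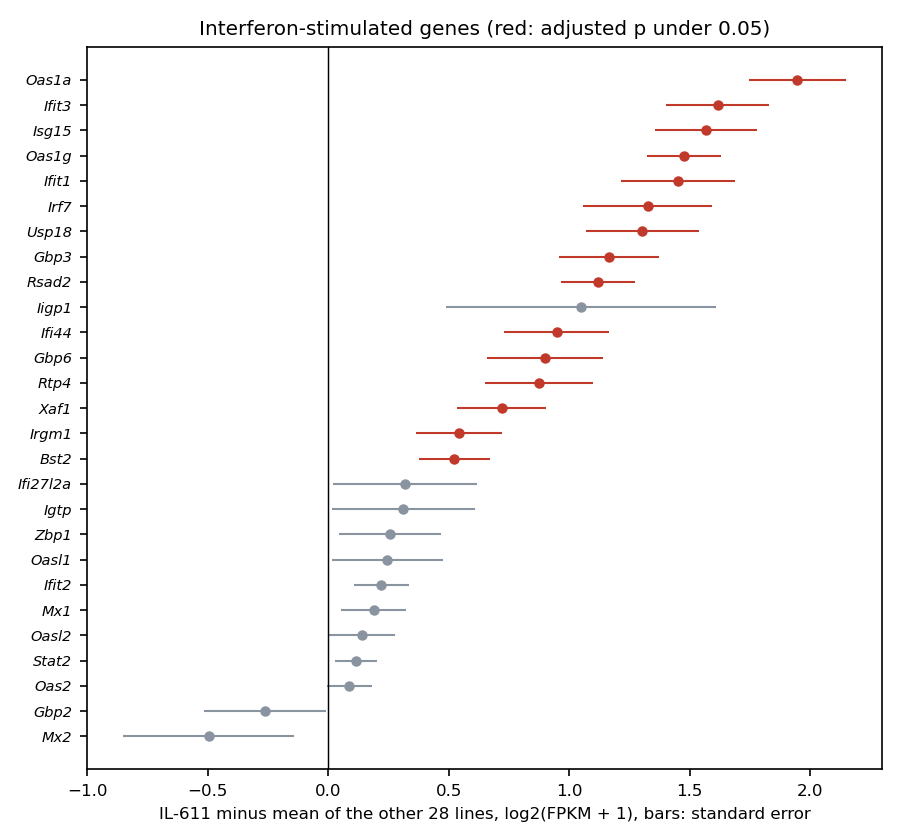
Difference between IL-611 and the mean of the other 28 lines for the interferon-stimulated genes tested other than 1 that is not reported here, on the log2(FPKM + 1) scale with standard errors, red where the adjusted p was under 0.05. The red points, 15 genes, all lie above 0, with Oas1a at 1.95 the highest.

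Drug-handling genes moved in both directions. Of 140 genes in 6 lists of oxidation, conjugation and transport, 21 rose and 11 fell, or 22.9% called against 14.9% of all genes. The 32 calls became 18, 22 and 20 without IL-611 replicates 1, 2 and 3, and 19 with body weight as a covariate. Over all genes the 1680 calls became 760, 1086 and 763, and 740 with body weight. Among the 46 cytochromes P450 of families 1 to 3, 6 rose and 3 fell, and 23 differences were positive and 23 negative. Cyp3a13, a family member of the intestine and liver, was at 8.07, 7.44 and 7.61 FPKM against 9.02 to 94.7 (median 40.03) and fell by 2.15 ± 0.19 (adjusted p = 1.20e-09). Its nearest lines, IL-4052 and IL-3575, had 9.02 and 9.68 FPKM. Cyp2c44, an epoxygenase of arachidonic acid, was at 13.3, 15.4 and 13.6 FPKM against a median of 105 and fell by 2.23 ± 0.16, although 4 other lines were lower. Cyp1a2, the caffeine oxidase of the pericentral hepatocyte, rose by 0.76 ± 0.14, at 541 ± 63.2 FPKM (SD, n = 3) against a highest line of 502. Cyp3a25 rose by 0.90 ± 0.20 at 835 ± 90.5 FPKM, while Cyp3a11, the main steroid-inducible family member, was at 1366 ± 61.5 FPKM against a median of 1369.6 and did not pass.

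The glucuronosyltransferases split within 1 locus. Of 17 tested, 5 rose and 3 fell, against 5.23% and 9.66% of all genes. Ugt1a1, the enzyme that conjugates bilirubin, was at 236, 247 and 245 FPKM against 65.6 to 240.2 (median 109) and rose by 1.09 ± 0.17 (adjusted p = 4.68e-05). Ugt1a9 was at 31.0, 35.6 and 33.9 FPKM against 48.4 to 362 (median 183) and fell by 2.17 ± 0.17 (adjusted p = 8.04e-11). Every IL-611 mouse was thus below the lowest line mean for Ugt1a9, and the IL-611 mean was above every line mean for Ugt1a1. The genes of this locus share their last exons, so that fragments there are divided between them, and counts were whole in 1 and 0 of 55 mice for Ugt1a1 and Ugt1a9. Ugt2b38 was at 0.02, 0 and 0.03 FPKM against a median of 10.3 and fell by 2.92 ± 0.45, while IL-2689, IL-2156 and IL-557 were listed at 0. Among the glutathione transferases Gstm2 and Gstm6 rose by 1.71 ± 0.44 and 1.32 ± 0.35. Gstm6 was at 132, 126 and 98.5 FPKM against a highest line of 117, and both share fragments with other Gstm genes. The carboxylesterases Ces2a and Ces2c, which hydrolyse ester prodrugs, rose by 0.68 ± 0.13 and 1.62 ± 0.42. The sulfotransferase Sult1a1 fell by 1.07 ± 0.26. Sult2a1, a female-biased family member, fell by 0.92 ± 0.24 against the mean of the lines, but at 0, 0.07 and 0.04 FPKM it was close to the median line at 0.0425, and other lines reached up to 92.99 FPKM. Of the transporters, Abcb1b, a P-glycoprotein that exports drugs, was at 4.12, 4.13 and 3.11 FPKM against 0.01 to 3.65 and rose by 1.45 ± 0.17, and the uptake carrier Slc22a7 fell by 0.98 ± 0.27.

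Of the 7 enzymes on the irinotecan route named by the study, which release and conjugate the active metabolite of this cancer drug, Ugt1a6a and Ugt1a6b rose by 0.53 ± 0.13 and 0.81 ± 0.09. Ugt1a10 and Gusb fell by 1.98 ± 0.11 and 0.33 ± 0.09. Ces2h, Ces3a and Ces3b did not pass, at 0.133 ± 0.0929 FPKM, 1102 ± 30.7 FPKM and 287 ± 14.6 FPKM (SD, n = 3) against medians of 0.223, 963 and 227. The list was chosen by the study on these samples, so its counts are not independent evidence of a direction.

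**Figure D3:**
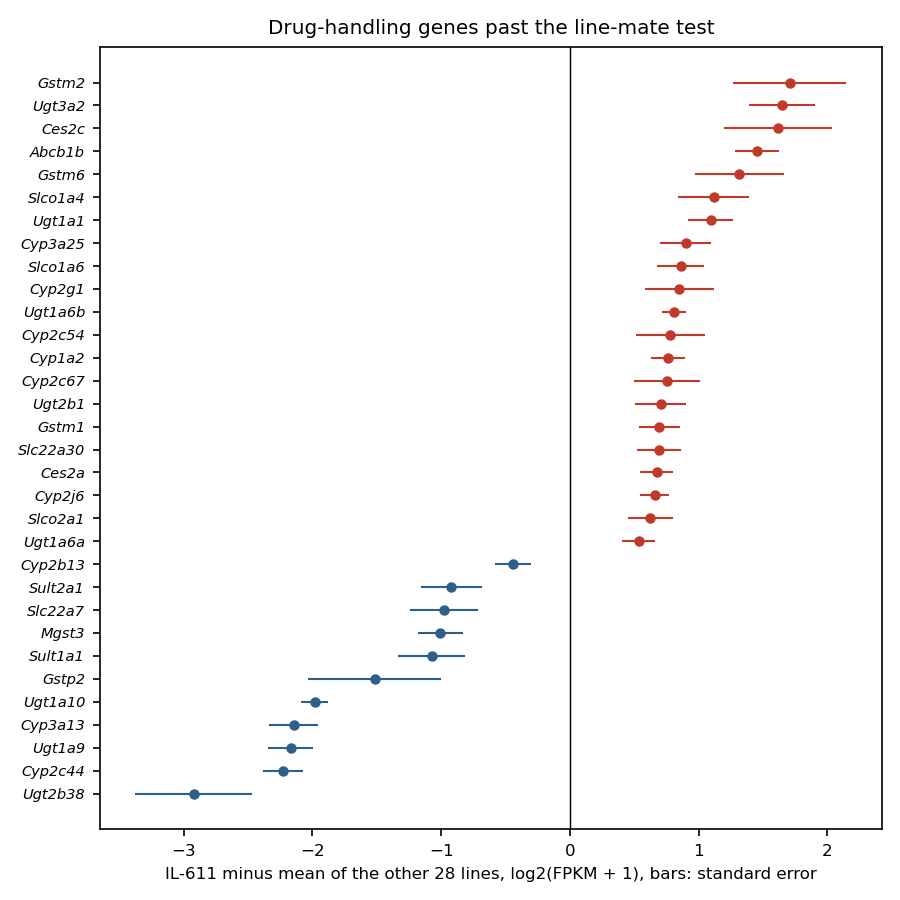
Difference between IL-611 and the mean of the other 28 lines for the 32 drug-handling genes that passed the test among line mates, on the log2(FPKM + 1) scale with standard errors. The 21 red points to the right are genes that rose, led by Gstm2 at 1.71, and the 11 blue points to the left are genes that fell, of which Ugt2b38 moved most.

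Several genes of lipid synthesis were lower. Of 20 genes of de novo lipogenesis, which build fatty acids from citrate, 5 fell and 0 rose, and the median difference was -0.40 on the log2 scale against -0.05 over all genes, of which 9.66% fell. Me1, the malic enzyme that supplies NADPH, was at 19.04, 14.6 and 24.99 FPKM against 28.3 to 131 (median 62.1), below every other line mean, and fell by 1.51 ± 0.23 (adjusted p = 2.23e-05). Thrsp, a carbohydrate-responsive cofactor, fell by 1.88 ± 0.45 but varied among mates, at 99.5, 77.3 and 34.1 FPKM. Acaca, the carboxylase that makes malonyl-CoA, and the elongases Elovl6 and Elovl5 fell by 0.56 ± 0.19, 0.77 ± 0.26 and 1.11 ± 0.22. Fasn, the synthase itself, was at 35.1 ± 8.18 FPKM (SD, n = 3) against a median of 68.8 and did not pass (adjusted p = 0.117), and neither did Scd1. The number of calls in this list was 3, 3 and 2 without IL-611 replicates 1, 2 and 3, where all genes gave 760, 1086 and 763. Apoa4, an apolipoprotein that rises with hepatic fat load, was at 46.6, 39.2 and 37.5 FPKM against 58.1 to 1521 (median 207) and fell by 2.36 ± 0.43 (adjusted p = 3.21e-04), and Apoc2, a cofactor of lipoprotein lipase, fell by 0.57 ± 0.14.

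The circadian clock genes moved in both directions. Arntl and Clock, the activating pair, rose by 0.91 ± 0.20 and 0.30 ± 0.09, and Per1, Per2, Per3 and Tef, which their product drives, fell by 1.34 ± 0.23, 0.68 ± 0.18, 0.67 ± 0.19 and 0.66 ± 0.17. Thus 2 higher and 4 lower of 15 were called and 9 did not pass, Dbp and Nr1d1 among them, where 5.23% of all genes were higher and 9.66% lower. Dbp was at 10.7 ± 3.88 FPKM (SD, n = 3) against a median of 28.96 FPKM and Nr1d1 at 25.9 ± 6.74 FPKM against 27.1. Levels of these genes follow the hour of dissection, which is not given in the sources used here, so line and hour cannot be told apart. There were 3 calls and 1 call without IL-611 replicates 1 and 3, where all genes gave 760 and 763.

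Among the secreted proteins, Serpina1e, a copy of the alpha-1 antitrypsin family, was at 155, 124 and 149 FPKM against 105 to 12431 with a median of 4794, and it fell by 3.25 ± 0.55. It was as low in 4 other lines, of which IL-4032 and IL-2126 had 105 and 111 FPKM. Of 19 Serpina1 and Serpina3 genes tested 4 rose, with Serpina1a by 0.65 ± 0.12, and 6 fell, with Serpina1d by 0.83 ± 0.14, against 5.23% and 9.66% of all genes. The 6 falls became 2 without IL-611 replicate 1 or replicate 3 and with edgeR on the counts. These copies share fragments, so the division between them is uncertain. Hc, which encodes complement C5, fell by 1.09 ± 0.17, at 44.2, 48.0 and 44.7 FPKM against a median of 116. Hamp2, a paralogue of the iron hormone hepcidin, rose by 2.38 ± 0.44 (at 3033 ± 384 FPKM, SD, n = 3, against a median of 513), whereas Hamp did not pass, at 882 ± 53.1 FPKM, and counts of both share fragments. Of the acute phase list of 26 genes, Serpina3m rose and the metallothioneins, which the acute phase also induces, were the 2 that fell. The other 23 did not pass, and the shares of 3.85% higher and 7.69% lower were under the 5.23% and 9.66% of all genes.

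The pattern of growth hormone sets a sex bias in many genes of mouse liver. Of 20 male-biased genes 16 had a positive difference with a median of 0.68 on the log2 scale, while Ugt2b1 and Susd4 rose and Serpina1e fell. Of 24 female-biased genes 20 had a negative difference with a median of -0.66, beside -0.05 over all genes. Of the 24, Cyp2b13, Cyp17a1, Sult2a1 and Acot3 fell and Hamp2 rose. Differences are from the mean of the lines, so a gene high in only a few lines is negative in a typical line. Sult2a1, close to the median line, is such a gene. The shares called in the male-biased and female-biased lists, 15% and 20.8%, were near the 14.9% of all genes. Without any 1 IL-611 mouse the male-biased rises numbered 0 and the female-biased falls 0 to 1. Among 20 chaperones Hsph1, Dnajb1 and Dnajb9 fell, by 1.29 ± 0.29, 0.87 ± 0.27 and 0.69 ± 0.18, where 9.66% of all genes fell. With body weight as a covariate no chaperone was called, and without IL-611 replicate 1 or replicate 3 there was 1 call. Of 13 pericentral genes, which act around the central vein, 12 had a positive difference. Glul, the glutamine synthetase, Cyp1a2 and the glutamate carrier Slc1a2 rose, where 5.23% of all genes did. Without IL-611 replicate 1 or replicate 2 there was 1 call, with TPM 2 and with edgeR on the counts 4. None of 12 genes of gluconeogenesis and glucose handling passed.

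**Figure D4:**
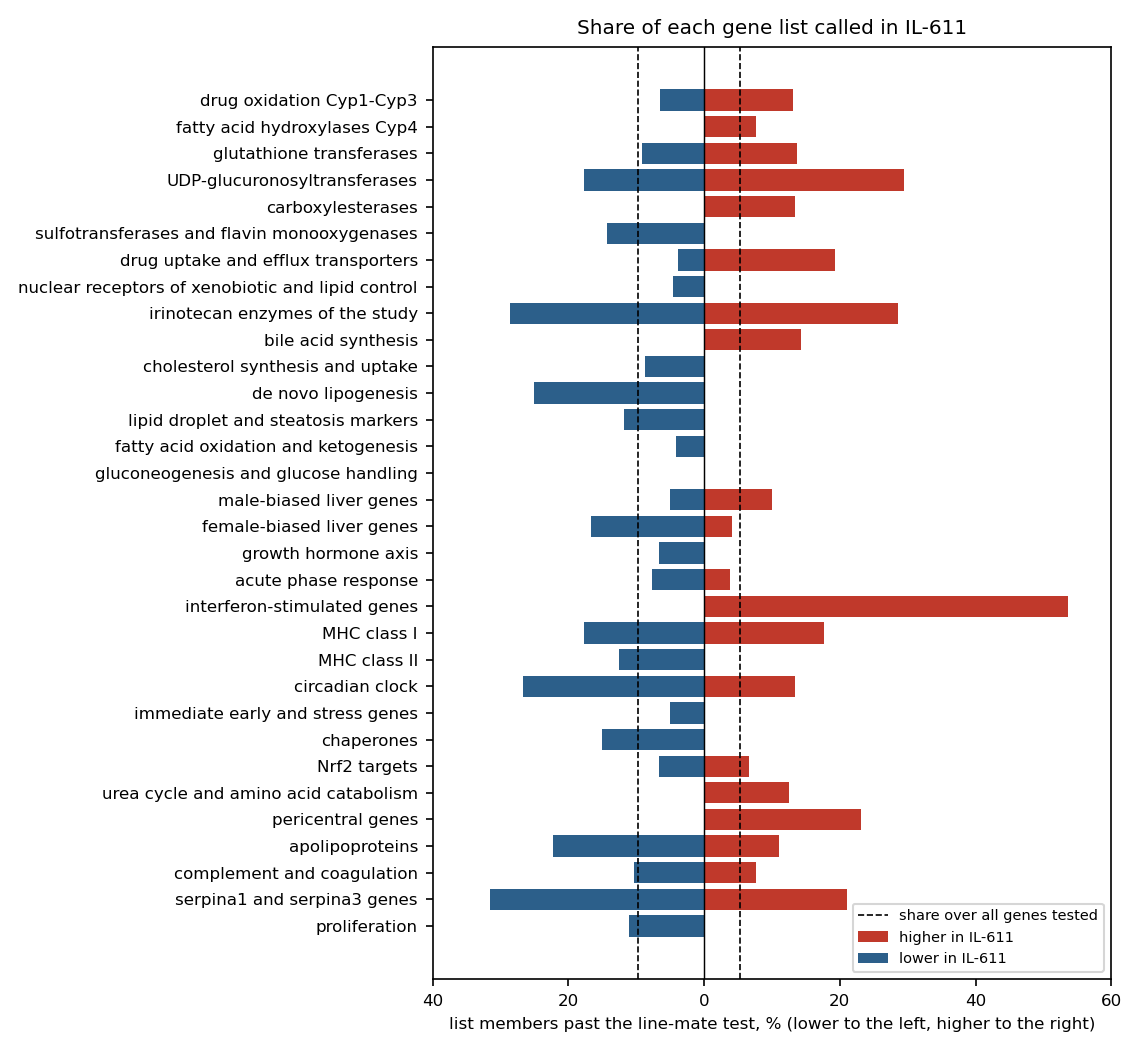
Share of each gene list that passed the test among line mates, with genes higher in IL-611 to the right and lower to the left, and dashed lines at the shares over all genes tested (5.23% and 9.66%). The longest bar is that of the interferon-stimulated genes on the right.

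The other named genes alone at an end of the 28 lines were of varied function, out of 49 called genes at the top (0.434%) and 168 at the bottom (1.49%). At the top, Apol9b, an interferon-responsive apolipoprotein L, was at 127 ± 9.27 FPKM against a highest line of 116, Tmem51 at 12.8 ± 2.02 FPKM against 10.7, and Col5a3, a collagen chain, at 4.403 ± 1.12 FPKM against 3.71 (SD, n = 3). Apol9b had whole counts in 0 of 55 mice and shares fragments with Apol9a. At the bottom, Akr1c18, a hydroxysteroid dehydrogenase that inactivates progesterone, was at 0, 0.03 and 0 FPKM against a median of only 0.142 and a highest line of 122. Mmd2, AK157302, Abhd2, a lipase, and Rcan1, which inhibits calcineurin, fell by 1.94, 2.06, 1.41 and 1.35 on the log2 scale.

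Isoform ratios, the share of a gene's fragments assigned to 1 transcript, were tested for 5810 genes. The test among line mates called 48 higher (0.826%) and 80 lower (1.38%), or 2.2% in all, limma over line means called 0 (57, or 0.981%, at an unadjusted p under 0.05), and no isoform ratio had all IL-611 mice outside the 52 others. The largest difference was in Crp, the C-reactive protein, an acute phase protein of the hepatocyte. Transcript ENSMUST00000038495 held 86.5%, 81.9% and 92.9% of Crp fragments in IL-611, against 3.06% in IL-557, a median of 5.84% and 84.4% in IL-2689. It rose by 74.4 ± 4.77 percentage points (SE, adjusted p = 5.23e-12), and the total level of Crp did not pass, at 212 ± 11.99 FPKM against a median of 188. The 3 IL-2156 mice were at 37.9%, 40.6% and 89.0% and the IL-2011 mice at 42.1% and 46.4%, so a mouse of IL-2156 and the mouse of IL-2689 lay within the IL-611 range. In the annotation of NCBIM37 this transcript keeps 60 bases, chr1:174629672-174629731 all noncoding, that ENSMUST00000168258 lacks, and it differs further by 10 and 6 bases at its ends.

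In Hspa8, the constitutive HSP70 chaperone, transcript ENSMUST00000117557 held 23.3%, 41.4% and 29.9% in IL-611 against a median of 78.5%, and fell by 44.7 ± 4.14 percentage points (adjusted p = 2.11e-08). IL-2689, IL-519 and IL-2146 had means of 30.0%, 40.9% and 60.9%, with 1, 2 and 2 mice, and every other line had at least 72.0%. Transcript ENSMUST00000015800, at 74.8%, 56.9% and 68.8% in IL-611, holds 318 noncoding bases at its start and 57 coding bases that the first lacks. The 57 bases are shown in capitals, with 20 genomic bases on each side, because they mark the coding difference between these transcripts.
Hspa8, chr9:40610802-40610898 of NCBIM37, plus strand: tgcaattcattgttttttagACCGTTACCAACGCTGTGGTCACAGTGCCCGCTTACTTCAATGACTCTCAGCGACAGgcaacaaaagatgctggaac
The IL-2689 mouse, an IL-519 mouse at 38.7% and an IL-2146 mouse at 40.9%, whose mate had 80.9%, lay within the IL-611 range, so the groups overlapped. Counts of Hspa8 were whole in 1 of 55 mice, so its fragments are shared with other gene models and the ratio is uncertain.

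**Figure D5:**
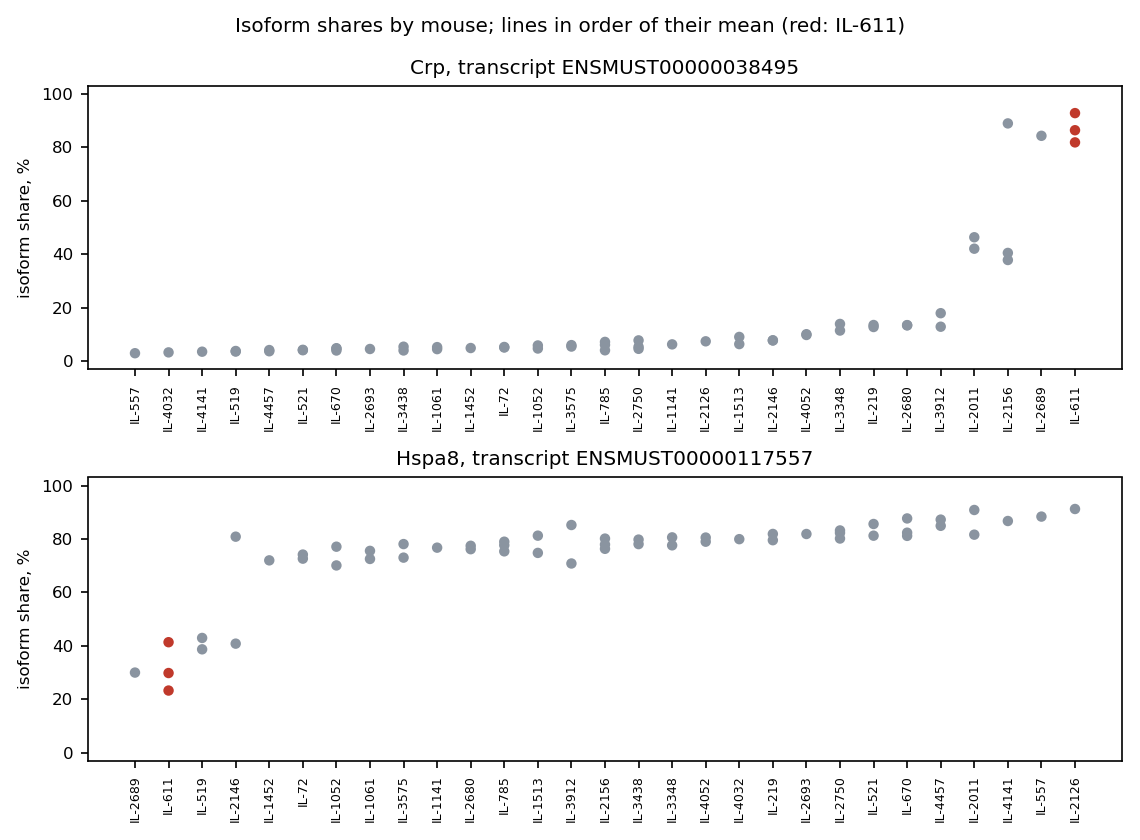
Share of Crp and of Hspa8 fragments held by 1 transcript each in every mouse, in percent, with the lines in the order of their means and IL-611 in red. For Crp most lines sit under 20% and IL-611 at 81.9% to 92.9%. For Hspa8 most lines sit above 70% and IL-611 at 23.3% to 41.4%.

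Among protein-coding genes with a gene symbol and at least 100 counts in every IL-611 mouse, the next differences were in Card10, Abhd14a, H2-Q6, Lactb, H2-K1 and Ndufaf2. The clone-named 6530401N04Rik and the noncoding 2310001H17Rik also belonged to this range, with a rise of 44.3 and a fall of 42.3 percentage points. Lactb, a mitochondrial protease-like protein, held 99.99%, 99.9% and 97.3% in transcript ENSMUST00000034929 against a median of 75.3%, a rise of 40.7 ± 5.68 points. Ndufaf2, an assembly factor of respiratory complex I, held 75.7%, 56.6% and 58.2% against a median of 7.54%, a rise of 39.7 ± 4.13 points, and Abhd14a rose by 48.0 ± 6.73 points. Card10, a scaffold of NF-kappaB signalling, fell by 49.7 ± 10.2 points but ranged from 0 to 23.4% among IL-611 mice. The MHC class I genes H2-Q6 and H2-K1 rose and fell by 41.4 ± 6.87 and 40.2 ± 10.1 points, with whole counts in 1 and 0 mice, so both are uncertain. Of the 128 genes with a called ratio, 50 were also called in total expression, where 14.9% of all 11284 genes tested were called. The 128 come from genes with a mean expected count of at least 100, whose own share was not taken.

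Among the drug-handling genes, Cyp3a25 and Gsta2 have several annotated transcripts. The study showed IL-611 among its representative lines for the isoforms of both genes, on these samples. Their differences are thus not independent evidence. The main Cyp3a25 transcript, ENSMUST00000068317, held 97.9%, 98.4% and 98.9% in IL-611 against line means of 69.5% to 99.0% (median 89.1%) and did not pass (a difference of 9.97 percentage points, adjusted p = 0.136). Gsta2 transcript ENSMUST00000034902 held 74.2%, 74.4% and 70.7% against 67.8% to 99.7% (median 93.0%) and fell by 16.8 ± 1.80 points (adjusted p = 2.07e-07), with 3 other lines lower. The Gsta2 total was 60.6 ± 16.3 FPKM (SD, n = 3) against a median of 35.3 and did not pass.

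Markers of other cells gave these values. Of 11 hepatocyte markers 1, Hnf4a, fell, by 0.39 ± 0.11, and their summed level of 62589.6 to 68900.2 FPKM lay within the other line means of 51986 to 85236. The liver label thus matched its defining markers in all 3 mice. Of 9 stellate and fibroblast markers tested, the collagens Col1a2 and Col3a1 and Tagln fell by 0.37, 0.66 and 0.61, while the sum over the list was 56.7 to 87.7 FPKM against line means of 17.8 to 135. Over all genes 9.66% fell, and without IL-611 replicate 1 or replicate 3 limma called 0 of these markers. Summed endothelial markers were at 47.5 to 89.9 FPKM against 22.1 to 99.2, and erythroid markers, of which Alas2 rose by 1.09 ± 0.24, at 1291 to 1543 against 509.8 to 4174. Cholangiocyte markers stood at 34.8 to 44.4 FPKM against 10.1 to 155, and pancreas and adipocyte lists held 7 and 6 genes at 0 in all IL-611 mice. The part of cell composition in the differences was not tested, and in whole liver fewer cells of a type and less RNA per cell cannot be told apart.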

How the data were processed

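PolyA RNA of 55 whole livers was sequenced from stranded libraries, and the authors quantified it with RSEM 1.2.18 against mm9 (NCBIM37). For each gene the authors deposited an estimated count (the expected count of RSEM), TPM and FPKM, and for each transcript its percent of the gene (the isoform percent). Fragments that align to several genes were divided among them by RSEM, which makes values of near-identical genes depend on that division. Of 37620 gene identifiers 37205 were named from the annotation.

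Mice were grouped by strain label. Genes with a maximum FPKM of at least 2 over mice were kept (11284), and isoform ratios of genes with a mean expected count of at least 100 and at least 12 levels (5810). The test among line mates was limma 3.58.1 on log2(FPKM + 1), or on the isoform percent, with 1 coefficient per line and the contrast of IL-611 with the mean of the other 28. The test over lines was edgeR 4.0.16, quasi-likelihood, on line sums of expected counts rounded to whole numbers, where IL-611 is 1 unit. Fold changes on log2(FPKM + 1) understate changes of low genes. P-values were adjusted by Benjamini-Hochberg over all features at 0.05. DESeq2 1.42.0 was an alternative (R 4.3.3, Python 3.11.15). The scripts were tested on simulated data.

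The members and lists were chosen with earlier results of these data known. Since edgeR called no gene, the planned rule (genes past both tests without overlap) named none, and a rule chosen after values were seen was used, namely the 14 largest differences in each direction among called genes at an end of the lines, the genes without overlap, up to 4 members of each list, and the 8 largest isoform differences in protein-coding genes with a gene symbol and at least 100 counts in each IL-611 mouse. Further genes of a list, Mtf1, Slc30a1 and those around Ly6a were also picked after their values were seen. Promoter letters came from RefSeq (GRCm38.p6). A few genes of these lists are counted but not reported here by name.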

Additional observations from a re-analysis of the deposited data

How the results depend on the processing

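Over lines edgeR called 0 genes, DESeq2 46, and limma on line means, lines with at least 2 mice, and age and body weight as covariates 1 each. Leaving out 1 other line gave 0 to 1, with 1 without IL-519, IL-557 or IL-785. Among line mates the 1680 calls became 760 without IL-611 replicate 1, 1086 without replicate 2 and 763 without replicate 3. With body weight as a covariate they became 740, and the cause of these changes was not tested. Counts of list members in these settings are to be read beside these totals. Isoform ratios went from 128 to 63 to 74 without 1 IL-611 mouse and to 59 of 1644 with a mean count of at least 1000, where fewer ratios were tested. Over lines the isoform calls were 0 to 4 without 1 IL-611 mouse. Genes without overlap numbered 18, and 31 to 38 without 1 IL-611 mouse, where fewer mice have to lie outside, while isoform ratios past both tests without overlap numbered 0 to 1. No gene passed both tests without overlap, against 18 with no overlap alone. Lipogenesis calls went from 5 to 3 without the filter and to 2 to 3 without 1 IL-611 mouse, and clock calls from 6 to 3 with body weight and to 1 to 7 without 1 IL-611 mouse. For the total expression of Crp, lines being the units and no call made, the difference (0.18) turned to -0.0366 with age and body weight, and the total expression of Xaf1, also not called, to 0.72 with limma on line means. Drug-handling calls went from 32 to 18 to 22 without 1 IL-611 mouse and to 19 with body weight. For 152 named results among line mates, 1387 of 1622 values over all settings kept direction and call, 232 lost the call and 0 turned. Of the 152 results, 73 lost the call in at least 1 setting. The call was lost by 51, 31 and 55 results without IL-611 replicates 1, 2 and 3, and by 43 with body weight as a covariate. No paired analysis was made, because nothing in the labels pairs an IL-611 mouse with a mouse of another line. The labels give no batch, and low genes such as Crry-ps rest on few counts.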
